A study of Mus musculus with 6 samples.

Results

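Galectins and the small S100 proteins that act mainly inside cells were described here in ribosome-bound RNA from the injured mouse spinal cord. The 9 genes listed were the galectins Lgals1, Lgals3, Lgals8 and Lgals9 and the S100 genes S100a1, S100a4, S100a6, S100a10 and S100a11. They were found by their symbol in the authors' unfiltered table of 13960 rows. Of the 9, 8 had a row and S100a4 had none. Of these 8, 7 were tested, and S100a11 was set aside for a reason given with its values. Galectins bind galactose-containing sugar chains; they are made in the cytosol, leave the cell without a signal peptide, and those inside the cell gather on vesicles whose membrane has broken. S100 proteins are small calcium sensors that pair with partners such as annexins, and several are abundant in phagocytes, fibroblasts and glia. Lgals3, long used under the name Mac-2 as a macrophage marker, is known for its high level in phagocytes at sites of injury.

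The RNA came from chimeras labelled LysMCre:Rplfl/fl > CD45.1, in which Cre from the lysozyme M gene marks ribosomes in macrophages and other myeloid cells, neutrophils included. Tagged ribosomes were precipitated (the RiboTag method) from the cord injury site after a contusion at vertebral level T8, 3 days or 7 days later, with 3 libraries at each time. All libraries share the genotype, the strain label CD45.1 and the injury; the labels used here give no age. No uninjured cord and no RNA from before the precipitation was among the samples, so every value sets 7 days against 3 days, and nothing says whether libraries came from separate animals. P-values therefore measure the spread between these libraries, which may be technical.

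Of the 9 macrophage markers listed, 4 were tested, and their summed level was 1045 to 1197 FPKM at 3 days and 1012 to 1063 FPKM at 7 days. They went different ways: 1 was higher (Csf1r, log2 0.46), 2 were lower (Fcgr1, -0.77, and Cd14, -0.86) and Itgam did not pass. FPKM counts fragments, scaled to transcript length and to the mapped fragments of the library. Cd68, Mrc1 and the symbol Adgre1 had no row, and Lyz2 and Emr1 (the older symbol of Adgre1) were set aside; the library values of Emr1 were 1.95-fold higher in the mean at 7 days. RNA with markers of other cells was present too, and most but not all of these markers were lower at 7 days. The summed fibroblast and pericyte markers overlapped between the times. Summed oligodendrocyte markers measured 297 to 583 FPKM at 3 days and 126 to 153 FPKM at 7 days, with 6 of 6 lower. Summed neuron markers measured 125 to 284 FPKM and 36.6 to 48.9 FPKM, also with 6 of 6 lower. Of all genes tested, 20.3% were lower. In 3-day replicate 2 the astrocyte, oligodendrocyte, neuron and fibroblast sums were the highest of the 6 libraries. Fewer cells of a type and less RNA per cell cannot be told apart in such libraries. Depth is unknown, because the files hold no counts.

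Lgals3, S100a6 and Lgals1 were the most abundant of the group, at 554, 528 and 449 FPKM in the mean at 3 days, and their ranges over libraries overlapped. They ranked 47, 50 and 69 among the 13042 genes tested. S100a10 followed at 143 FPKM, below all 3 of them in every 3-day library. Lgals9 at 77.4 FPKM and S100a11 at 67.7 FPKM overlapped, Lgals8 at 48.1 FPKM lay below both, and S100a1 was the lowest at 23.1 FPKM. At 7 days Lgals3 (742 FPKM) ranked 36 and Lgals1 (494 FPKM) ranked 84, while S100a6 (183 FPKM) ranked 321. The order below them had changed: S100a1 came next at 90.1 FPKM, with a range that overlapped that of S100a10 at 77.8 FPKM, and S100a11 was last at 21.9 FPKM. Lgals9 and Lgals8, at 55.8 and 54.4 FPKM, overlapped at 7 days.

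**Figure D1:**
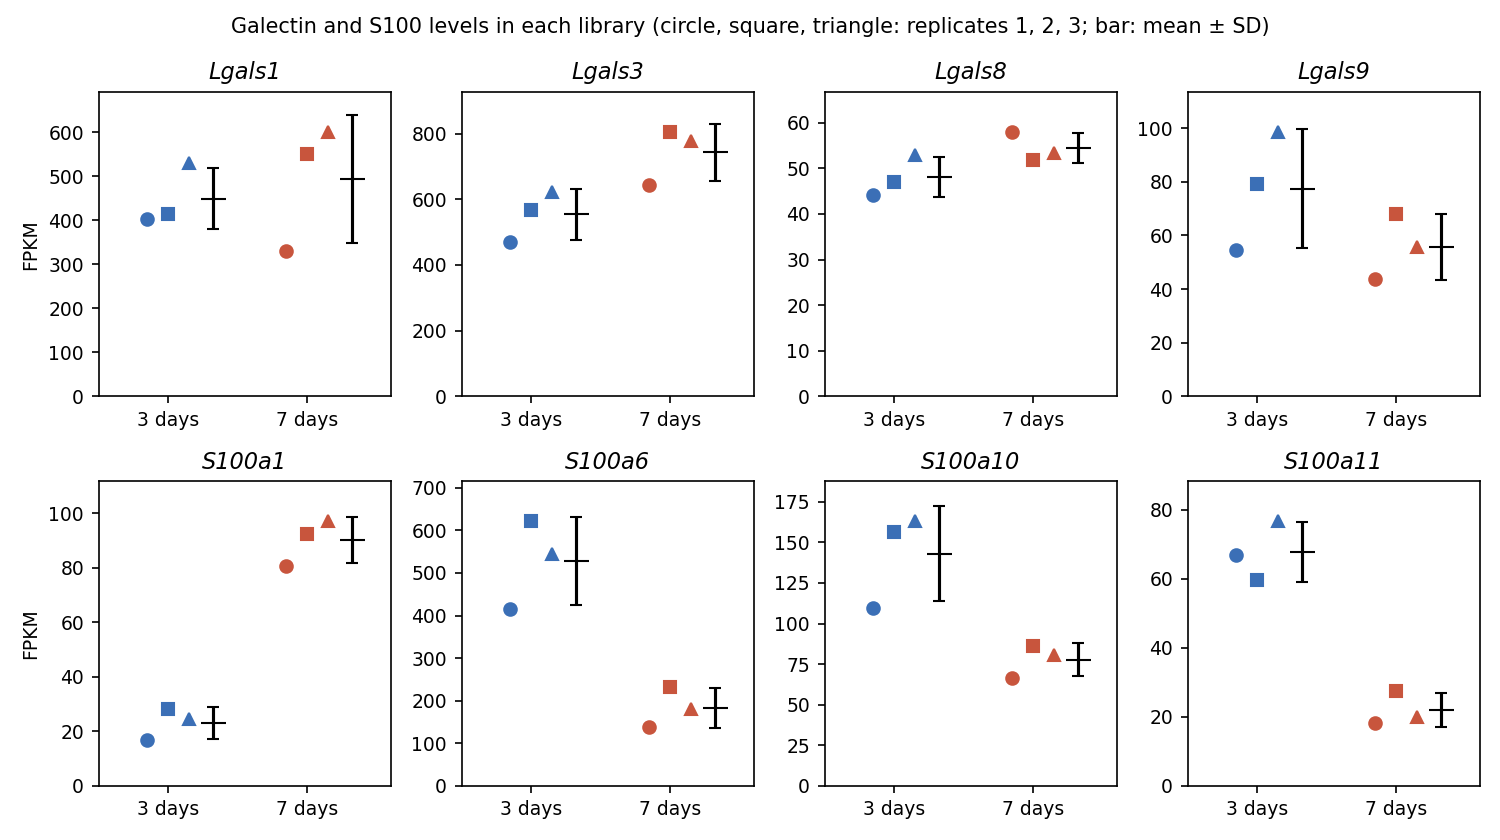
FPKM of the 8 genes with a row in each library at 3 days (blue) and 7 days (red), with the mean and SD of the 3 libraries in black; each panel has its own axis from 0. S100a1 lies higher and S100a6, S100a10 and S100a11 lie lower at 7 days in every library, while the times overlap for Lgals1, Lgals8 and Lgals9.

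Setting 7 days against 3 days asked what changed as the lesion aged. S100a1 rose, S100a6 and S100a10 fell, and 0 of the 4 galectins passed the limma test (1, Lgals3, had an unadjusted p under 0.05). To pass, or be called, a gene needed a limma adjusted p (Benjamini-Hochberg, over all 13042 genes) no higher than 0.05. So 3 of the 7 tested genes were called, against 39.1% of all genes tested. By direction, 1 was higher (18.8% of all genes) and 2 were lower (20.3% of all genes). The libraries of the times did not overlap for 4 of the 7, against 55.4% of all genes. The authors' deposited table gives a q-value of 0.05 or less to 5 of the 7, Lgals3 and Lgals9 besides the 3 called here, and to 38.4% of all genes tested. The share called here and the share without overlap lie close to those of all genes, so these counts do not set the group apart. The 5 of 7 by the authors' q-value lie above the share of all genes, a difference that was not tested. The median log2 change of the 7 was 0.10, beside -0.04 for all genes tested.

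**Figure D2:**
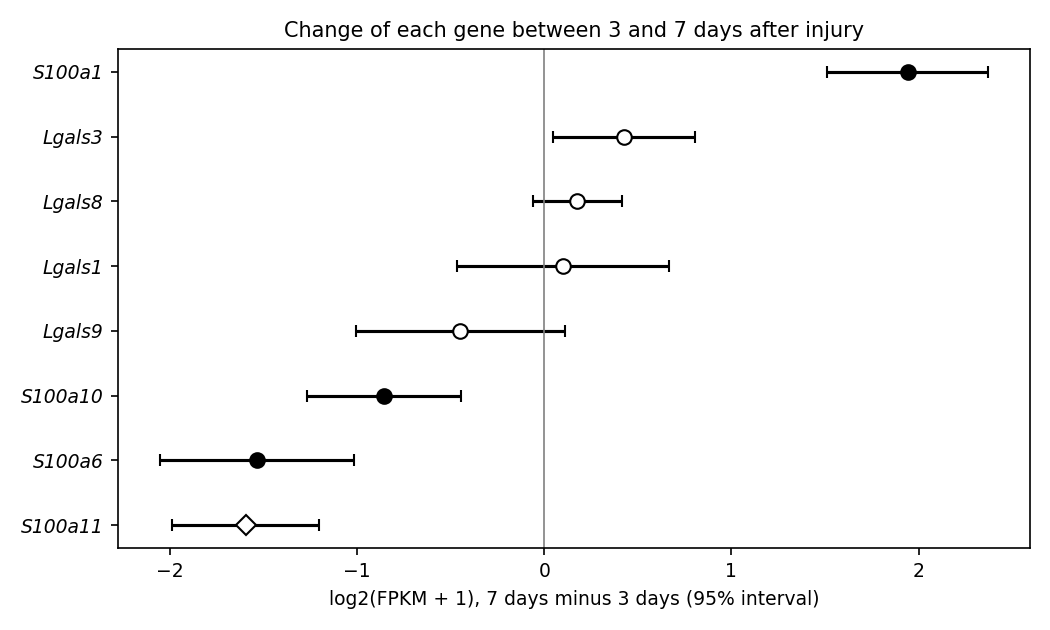
Fitted difference of log2(FPKM + 1), 7 days minus 3 days, with its 95% interval; filled circles passed an adjusted p of 0.05 and open circles did not. S100a1 stands at 1.94, S100a10 at -0.86 and S100a6 at -1.54, and the open diamond of S100a11 (-1.60) comes from a fit without rows set aside.

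The galectins were measured first. Lgals3 encodes galectin-3, the only galectin with a long flexible tail that lets it assemble into larger complexes (authors' locus mm10 chromosome 14, 47373745 to 47410949). It measured 471, 569 and 623 FPKM in 3-day replicates 1, 2 and 3 and 645, 806 and 777 FPKM in 7-day replicates 1, 2 and 3. All 7-day libraries were above all 3-day libraries, though the highest 3-day and the lowest 7-day value lay close together. The mean was 554 ± 77.1 FPKM (SD, n = 3) at 3 days and 742 ± 85.7 FPKM at 7 days. The log2 change was 0.42 ± 0.16 (SE), with a limma p of 0.0326 and an adjusted p of 0.0731, so the difference did not pass. With quantile normalization the change was 0.19 (adjusted p = 0.2895). The authors' deposited table gives Lgals3 a q-value of 0.0191. Its locus is shared with Dlgap5, which the annotation places on the other strand. How reads were divided between Lgals3 and Dlgap5 is not given in the sources used here, so the values are uncertain in that respect.

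Lgals1 encodes galectin-1, a small galectin that works as a pair of identical subunits (chromosome 15, 78926231 to 78930612). It measured 403, 415 and 529 FPKM at 3 days and 329.8, 550.3 and 601 FPKM at 7 days, so the lowest and the highest of the 6 values were both 7-day libraries. The change was 0.10 ± 0.24, with a 95% interval from -0.47 to 0.67 (limma adjusted p = 0.756), and its sign turned to -0.15 with quantile normalization. Without 7-day replicate 1, the library with the lowest value, the change was 0.37, with an adjusted p of 0.166. Transcribed and untranscribed pseudogenes of Lgals1 are annotated, and how reads were split among such copies is not given in the sources used here.

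Lgals8 and Lgals9 encode galectins with a pair of sugar-binding domains on 1 chain. Lgals8, whose protein draws the autophagy machinery to broken vesicles, lies at chromosome 13, 12434695 to 12461775. It measured 44.2, 47.05 and 52.9 FPKM at 3 days and 58.01, 51.7 and 53.4 FPKM at 7 days. The times overlapped, and the change was 0.18 with an interval from -0.06 to 0.42 (limma adjusted p = 0.199); with quantile normalization it was -0.056. The authors' locus is shared with Heatr1, annotated on the other strand, and how reads were divided between them is not given either. Lgals9, a galectin inducible by interferon, lies at chromosome 11, 78962783 to 78984992. It measured 54.5, 79.1 and 98.7 FPKM at 3 days and 43.7, 68.1 and 55.5 FPKM at 7 days. Replicate 1 was the lowest library at each time, and the times overlapped. The change was -0.45 ± 0.24 (limma adjusted p = 0.168), and its size hung on single libraries. Without 3-day replicate 1 it was -0.68 (adjusted p = 0.0434), without 3-day replicate 3 it was -0.25 (0.428), and without 7-day replicate 1 it was -0.29 (0.409). With quantile normalization it was -0.68 (0.05465). The authors' deposited table gives Lgals9 a q-value of 0.0047.

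Because FPKM is scaled to transcript length, levels can be added within a family. Lgals3 held 47.8% to 51.3% of the FPKM of the 4 galectins at 3 days and 52.2% to 59.9% at 7 days. Lgals9 held 5.61% to 7.57% at 3 days and 3.74% to 4.62% at 7 days. The share of Lgals3 was thus higher, and that of Lgals9 lower, in every 7-day library. Lgals1 held 37.4% to 41.4% at 3 days and 30.6% to 40.4% at 7 days, which overlap.

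**Figure D3:**
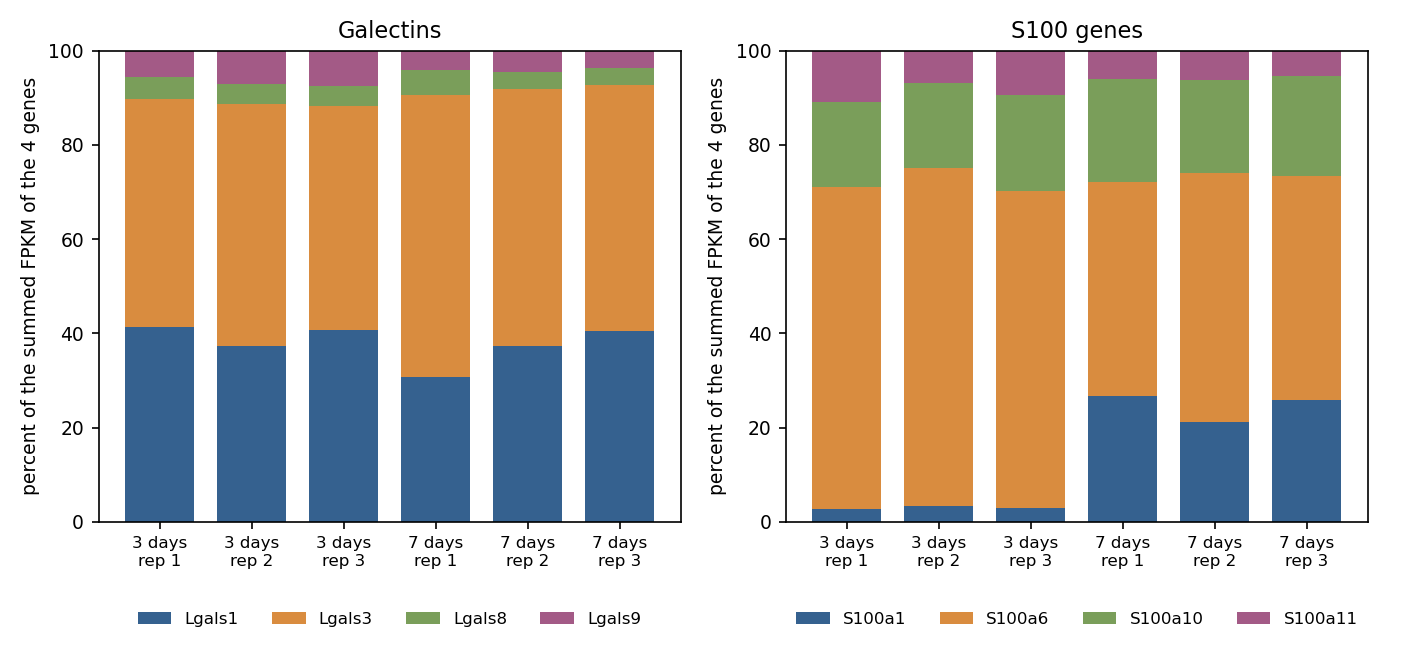
Share of each gene in the summed FPKM of the 4 galectins (left) and of the 4 S100 genes with a row (right) in each library; S100a4 has no row and is not part of the sum. S100a1 grows from about 3% of the S100 sum at 3 days (2.76% to 3.27%) to between 21.1% and 26.7% at 7 days, and the galectin shares move less.

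S100a1, best known as a calcium sensor of heart and skeletal muscle, was the 1 member called higher. Lgals3 was also higher in every 7-day library but did not pass. S100a1 measured 16.8, 28.3 and 24.3 FPKM at 3 days and 80.8, 92.3 and 97.2 FPKM at 7 days. Every 7-day library was far above every 3-day library. The mean rose 3.89-fold, from 23.1 ± 5.83 to 90.1 ± 8.40 FPKM (SD, n = 3), a log2 change of 1.94 ± 0.18 (SE; limma adjusted p = 6.24e-04). It kept its call in all 16 alternative fits, with changes from 1.74 to 2.10 and adjusted p from 2.62e-04 to 0.00523. The authors' table lists S100a1 and S100a13 under the same locus, chromosome 3, 90510616 to 90524819. The annotation (GENCODE M21) puts them head to head, S100a1 on the minus strand and S100a13 on the plus strand. The 42 bases between the annotated starts (RefSeq, GRCm38.p6, chr3:90514393-90514434) are shown on the S100a1 strand because they are all that separates the gene that rose from its neighbour.
between S100a1 and S100a13: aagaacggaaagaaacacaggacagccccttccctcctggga
How reads of this shared locus were divided between the genes is not given in the sources used here, so their values are uncertain in that respect. S100a13, a factor in the release of proteins that lack a signal peptide, measured 60.5, 71.9 and 72.4 FPKM at 3 days and 57.6, 75.6 and 70.1 FPKM at 7 days. The times overlapped, and the change was -0.01 with an interval from -0.32 to 0.29 (limma adjusted p = 0.936).

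S100a6 (calcyclin), found in dividing cells, fibroblasts and some astrocytes, fell. It measured 416, 622 and 544 FPKM at 3 days and 138, 231 and 179 FPKM at 7 days (chromosome 3, 90612930 to 90615430). The highest 7-day library lay well under the lowest 3-day library. The mean was 2.89-fold lower at 7 days, 183 ± 46.8 against 528 ± 104 FPKM (SD, n = 3), with a log2 change of -1.54 ± 0.22 (SE; limma adjusted p = 0.00252). In place of 22.0 to 24.8 times the FPKM of S100a1 at 3 days, S100a6 had 1.71 to 2.51 times at 7 days.

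S100a10 (p11), which lost calcium binding and forms a fixed complex with annexin A2 at membranes, fell as well. It measured 109, 156 and 163 FPKM at 3 days and 66.4, 86.4 and 80.6 FPKM at 7 days (chromosome 3, 93555051 to 93565790). The times did not overlap, and the mean was 1.84-fold lower at 7 days. The log2 change was -0.86 ± 0.18 (SE; limma adjusted p = 0.00904). Its calls and those of S100a6 held in all 16 alternative fits, with adjusted p up to 0.0359 and 0.0132.

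S100a11 (calgizzarin), a partner of annexin A1, was lower at 7 days in every library but was not tested. It measured 66.9, 59.5 and 76.7 FPKM at 3 days and 18.3, 27.6 and 19.98 FPKM at 7 days (chromosome 3, 93520494 to 93526972). The authors' deposited table gives it means of 0.985 FPKM at 3 days and 0.246 FPKM at 7 days, far from the mean of its own library values, 67.7 ± 8.61 and 21.9 ± 4.94 FPKM (SD, n = 3). The deposited q-value of 0.154 stands beside those small means. Rows whose library values miss the deposited mean by over 1% were set aside. In the fit that keeps them, S100a11 had a log2 change of -1.60 ± 0.17 (limma adjusted p = 9.08e-04 over 13928 genes). Which of its deposited values is right was not tested. A processed pseudogene of S100a11 is annotated on another chromosome.

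S100a6, S100a10 and S100a11 were lower at 7 days in every library. The stretch before the start of the gene is printed for S100a6 and S100a11, because no promoter sequence was found for S100a10. The 238 bases run from 250 bases before the RefSeq start (GRCm38.p6, plus strand), at chr3:90612644-90612881 and chr3:93520246-93520483. Capitals mark matches to the motifs named after them.
S100a6: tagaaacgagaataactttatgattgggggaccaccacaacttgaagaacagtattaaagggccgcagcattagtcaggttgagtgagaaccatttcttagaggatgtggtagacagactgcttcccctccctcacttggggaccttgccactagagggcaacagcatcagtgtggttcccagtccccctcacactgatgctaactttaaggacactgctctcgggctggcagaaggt
S100a11: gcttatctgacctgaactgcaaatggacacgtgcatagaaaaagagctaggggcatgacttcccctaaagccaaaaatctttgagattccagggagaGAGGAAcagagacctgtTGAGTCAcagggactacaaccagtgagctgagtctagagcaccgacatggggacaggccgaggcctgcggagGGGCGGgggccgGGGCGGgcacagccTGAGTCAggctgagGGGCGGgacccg
Searched on either strand were AP-1 (TGANTCA), the interferon-stimulated response element (GAAA, 2 bases of any kind, GAAA), PU.1 (GAGGAA), Sp1 (GGGCGG) and a TATA box (TATAAA). Promoter sequences were found for 7 of the 9 listed genes, all but Lgals1 and S100a10. The S100a11 stretch held 2 AP-1 matches, 1 PU.1 match and 3 Sp1 matches, none overlapping another, and the S100a6 stretch held no match to these 5 motifs. Stretches of this length hold the AP-1 letters in 6.54%, the PU.1 letters in 22.1% and the Sp1 letters in 31.0% of 32851 promoters. In the Lgals9 stretch there was 1 match to the interferon-stimulated response element, found in 2.84% of promoters, and 2 to PU.1. A match is a description of the letters only.

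The fall of these S100 genes went along with other RNA in the same libraries. The 7 astrocyte markers, 5 of them lower, summed to 213 to 594 FPKM at 3 days and 107 to 134 FPKM at 7 days. Of all genes tested, 20.3% were lower. The 6 endothelial markers, 5 of them lower and 1 higher, summed to 26.4 to 56.0 and 16.3 to 20.4 FPKM. The 5 tested fibroblast and pericyte markers, 3 of them lower, overlapped between the times (100.2 to 252 and 96.6 to 177 FPKM). The 6 inflammatory monocyte markers, 4 of them lower, summed to 458 to 525 and 172 to 226 FPKM. Of the lists, erythroid markers had the lowest median log2 change (-2.68): 4 of 4 were lower, and they summed to 164 to 213 and 15.9 to 22.4 FPKM. The 5 Schwann cell markers, 3 of them lower, summed to 30.02 to 50.01 and 21.8 to 25.6 FPKM. No marker of these 6 lists was at 0 in all 7-day libraries. S100a6 was highest, like the glial and fibroblast sums, in 3-day replicate 2. S100a10 was highest in 3-day replicate 3 (163 FPKM), and among the 3-day libraries S100a11 was lowest in replicate 2 (59.5 FPKM). At 7 days S100a6 was again highest in replicate 2 (231 FPKM), the library with the lowest astrocyte, oligodendrocyte and fibroblast sums (107, 126 and 96.6 FPKM). Without 3-day replicate 2 the change of S100a6 was -1.41 (limma adjusted p = 0.0120) and that of S100a10 was -0.78 (adjusted p = 0.0359). The part of these cells in the fall was not tested.

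Other S100 genes of chromosome 3 did not move as a block. Of the 19 genes on a list of other galectin and S100 genes, 9 had a row, among them S100pbp, which encodes a binding protein. By limma 1 was higher (18.8% of all genes), 2 were lower (20.3% of all genes) and 6 did not pass. At an unadjusted p under 0.05, 5 were lower. The median log2 change was -0.55, beside -0.04 for all genes tested. S100a16, a widely expressed S100 gene 26.2 kb from S100a1, fell. It measured 18.5, 45.5 and 24.5 FPKM at 3 days and 2.91, 6.14 and 4.51 FPKM at 7 days, with its highest value in 3-day replicate 2. The log2 change was -2.41 ± 0.34 (SE; limma adjusted p = 0.00235). S100a8 and S100a9, which pair as calprotectin of neutrophils and monocytes, were called in opposite directions. S100a8 measured 13.9, 20.6 and 20.1 FPKM at 3 days and 27.7, 34.04 and 22.4 FPKM at 7 days (log2 0.60 ± 0.20; limma adjusted p = 0.0459). That call was lost in 7 of 16 alternative fits, with adjusted p up to 0.142. S100a9 measured 24.6, 17.9 and 17.9 FPKM at 3 days and 9.32, 9.51 and 4.23 FPKM at 7 days (log2 -1.34 ± 0.28; limma adjusted p = 0.00996). The ratio of S100a8 to S100a9 was 0.565 to 1.16 at 3 days and 2.98 to 5.30 at 7 days. The 7 tested neutrophil markers, which include this pair, summed to 49.4 to 54.1 and 31.4 to 49.1 FPKM, with 1 higher and 2 lower. The other 5 summed to 11.5 to 15.6 FPKM at 3 days and 4.76 to 6.70 FPKM at 7 days; all 5 had a lower mean at 7 days, 1 of them (Cxcr2) passed, and Mpo was listed at 0 in all 7-day libraries. S100b, the astrocyte S100 gene, measured 13.6, 27.6 and 21.6 FPKM at 3 days and 10.7, 10.8 and 14.7 FPKM at 7 days; the times overlapped (limma adjusted p = 0.0566).

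**Figure D4:**
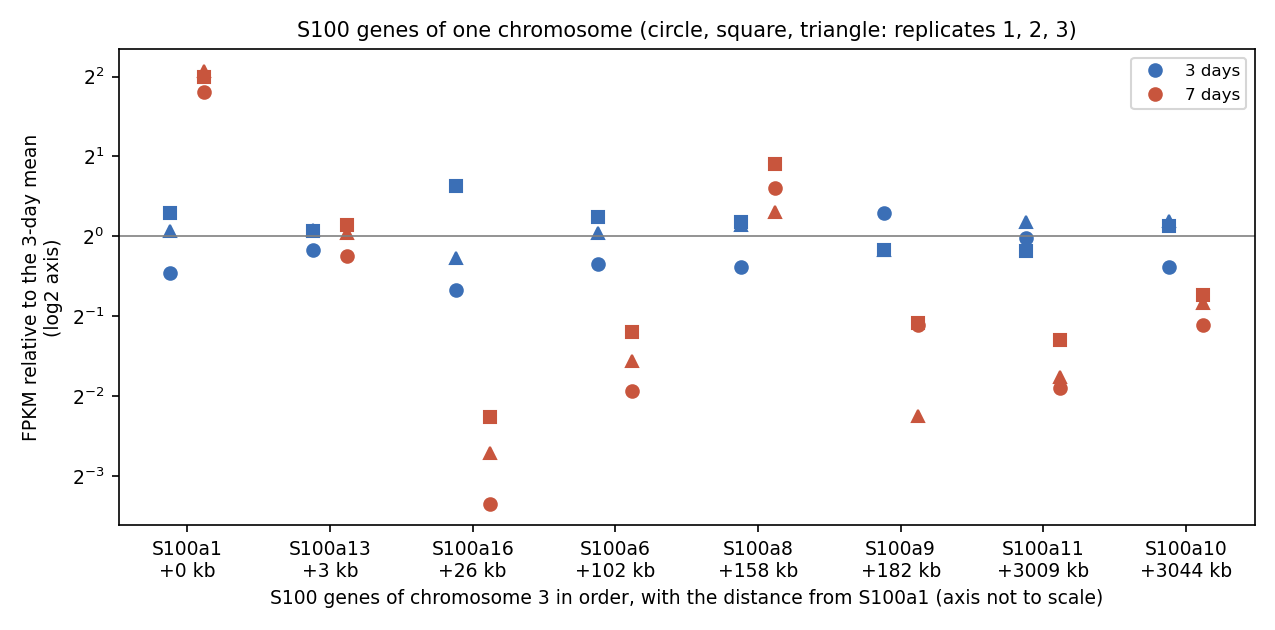
FPKM of the 8 S100 genes of chromosome 3 with a row, relative to the mean of the 3-day libraries on a log2 axis, in chromosomal order from S100a1 to S100a10. S100a1 and S100a8 lie above 1 in every 7-day library, S100a13 stays near 1, and the other 5 lie below 1.

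Of 8 tested partners of the S100 proteins, 4 were higher (18.8% of all genes) and 0 were lower (20.3% of all genes) by limma. At an unadjusted p under 0.05 the lower count was 0 as well. The median change was 0.29, beside -0.04 for all genes tested. With quantile normalization 1 was higher, Tlr4, and without 7-day replicates 1, 2 and 3 in turn the counts were 2, 2 and 1. Anxa2, the partner of S100a10, measured 254, 256 and 313 FPKM at 3 days and 261, 273 and 301 FPKM at 7 days. The times overlapped, and the change was 0.02 with an interval from -0.27 to 0.32 (limma adjusted p = 0.884); it was -0.23 with quantile normalization. Anxa1, the partner of S100a11, measured 499 ± 60.6 and 599 ± 34.7 FPKM (SD, n = 3) and did not pass (adjusted p = 0.151). Tlr4, a receptor for bacterial lipopolysaccharide and for S100a8 and S100a9, rose from 25.7 ± 1.80 to 43.7 ± 0.895 FPKM. Anxa5 rose from 494 ± 63.3 to 755 ± 58.2 FPKM and Anxa6 from 52.1 ± 5.03 to 68.6 ± 4.998 FPKM, and quantile normalization ended both calls (adjusted p = 0.0813 and 0.321). The call of Anxa5 was also lost without 7-day replicate 3 (adjusted p = 0.0592), and that of Anxa6 without 7-day replicate 1, 2 or 3 (0.0908, 0.0507 and 0.0691). The other gene called was Cacybp, the calcyclin-binding protein that takes its name from S100a6, from 56.5 ± 4.29 to 69.9 ± 2.70 FPKM (adjusted p = 0.0381), named after its values were seen; it lost its call in 8 of 16 alternative fits (adjusted p up to 0.671).

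Glycoproteins that galectins bind were higher in 5 (18.8% of all genes) and lower in 1 (20.3% of all genes) of 10 tested. Their median change was 0.44, beside -0.04 for all genes tested. The same shares of all genes apply to the enzyme and lysosome counts that follow. Lamp1, a lysosomal membrane protein, rose from 898 ± 55.2 to 1961 ± 168 FPKM and Lamp2 from 369 ± 48.8 to 667 ± 45.8 FPKM (SD, n = 3). Mertk, a receptor for dying cells, rose from 42.6 ± 2.999 to 77.4 ± 3.87 FPKM. Lgals3bp, a secreted glycoprotein that binds galectin-3, measured 182 ± 30.9 and 221 ± 25.6 FPKM, with overlapping times (limma adjusted p = 0.181). Of 12 enzymes that trim and branch N-glycans, 3 were higher and 2 were lower, and 0 were lower in the fit with a replicate block or in any fit that leaves out 1 library. Man2a2, a mannosidase that trims the chain before branching, rose from 14.1 ± 1.44 to 40.5 ± 4.84 FPKM, and Mgat1, which starts the first branch, from 18.6 ± 1.65 to 26.6 ± 2.13 FPKM. Mgat3, which adds the bisecting sugar, fell from 3.01 ± 0.972 to 1.48 ± 0.421 FPKM. That call ended in 8 of 15 alternative fits, including each of those that leave out 1 library (adjusted p up to 0.401). The other lower enzyme, Fut8, which adds core fucose, went from 26.5 ± 0.384 to 21.3 ± 1.67 FPKM (adjusted p = 0.0429) and lost its call in 9 of 16 (adjusted p up to 0.136). Of 12 genes whose proteins act in the response to damaged lysosomes, 5 were higher and 0 were lower by limma. At an unadjusted limma p under 0.05, 1 was lower, Vcp. Quantile normalization gave 3 higher and 2 lower. Leaving out any library but 3-day replicate 1 also gave 3 higher, with 1 lower without 3-day replicate 2. Calcoco1, an autophagy receptor, rose from 5.79 ± 0.372 to 11.7 ± 1.32 FPKM, and Ubxn6, a cofactor of the Vcp segregase, from 14.3 ± 2.38 to 24.1 ± 0.776 FPKM. Tax1bp1, an autophagy receptor for ubiquitin-marked cargo, rose from 226 ± 30.9 to 339 ± 32.96 FPKM, a call that ended with quantile normalization and without 7-day replicate 1 (adjusted p = 0.141 and 0.05405).

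For the most abundant galectin and S100 gene, the genes with the most similar pattern were sought among 6014 genes of 10 FPKM or more. The measure was the root mean square difference of log2(FPKM + 1), centred on each gene's mean, over the 6 libraries. For Lgals3 these were Cercam, Lphn2 and Nedd8, at 0.04, 0.05 and 0.05. For S100a6 they were Prdx6, Pdlim7 and Rtp4, at 0.12, 0.14 and 0.15. The search returns the 3 closest genes whatever their distance, and shared regulation was not tested. Prdx6, a peroxiredoxin that removes lipid peroxides, went from 89.4 to 31.8 FPKM in the mean.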

How the data were processed

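Per the labels' protocols, sequencing libraries of the RiboTag precipitates came from the ScriptSeq v2 kit. TopHat2 2.0.12, Cufflinks 2.2, Cuffdiff 2.2.1 and build mm10 are named in the submitters' processing notes, without role or order. The authors deposited FPKM per library and as a mean for each time, and per the file headers a log2 fold change, a test statistic (a score, not used), a p-value and a q-value. The scaling between libraries is not given in the sources used here. Of 13960 rows, 918 were set aside: 45 not marked OK, 838 with a deposited mean over 1% away from that of the library values, 14 with a 0 beside 100 FPKM or more, and 32 of repeated symbols, with overlaps.

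The remaining 13042 genes were fitted with limma 3.58.1 (R 4.3.3) on log2(FPKM + 1) with a mean-dependent prior variance, as a two-sided test of 7 days minus 3 days with p-values adjusted by Benjamini-Hochberg. The pseudocount understates changes of low genes. With 3 libraries a time, the smallest p of an exact test is 0.1. The named genes are the listed genes; S100a8, S100a9, S100b, Lgals3bp, Anxa1 and Anxa2; up to 3 called genes of each context list with the largest change and a mean of 1 FPKM or more; and the 3 genes most like the most abundant tested galectin and S100 gene. S100a13, Cacybp, Fut8 and Vcp, and markers of other cells named singly, fall outside this rule and were named after their values were seen. Members and lists were chosen with earlier results of these data known. Alternatives were the pseudocount, filters, scaling, the prior, the authors' filtered table, rows kept, a replicate block and each library left out. Python 3.11.15 with pandas 2.3.3 and matplotlib 3.10.9 did the rest.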

Additional observations from a re-analysis of the deposited data

How the results depend on the processing

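Over the 16 alternative fits, S100a1 stayed called higher and S100a6 and S100a10 called lower; the members called were 1 higher and 2 lower in 13 of the fits. A further member was called lower without 3-day replicate 1 (Lgals9), and with no rows set aside (S100a11). The authors' deposited q-values called 2 members higher and 3 lower, adding Lgals3 and Lgals9. With the replicate number as a block 2 were higher and 3 lower, again with Lgals3 (adjusted p = 0.0403) and Lgals9 (0.0499). Same-numbered libraries deviated together with correlations of 0.133, 0.0057 and 0.0097 only, so the numbers were not taken as pairs; only replicate 1 of 3 days correlated best with its own number. Over all genes the block gave 2450 higher and 2425 lower calls. Over all genes 2453 were higher and 2645 lower; leaving out each library gave 1572 to 2207 higher and 1697 to 2565 lower, with the lowest counts without 7-day replicate 2. Genes of 5 FPKM or more left 1204 lower, and the authors' filtered table left 1419 lower, with fewer genes tested (8067 and 9489). Signs that turned belonged to genes that did not pass: Lgals1 was -0.15 and Lgals8 -0.056 with quantile normalization, and Anxa2 -0.23. Leaving out each library gave Lgals1 changes from -0.0646 to 0.37, Anxa2 changes from -0.0328 to 0.12 and S100a13 changes from -0.0981 to 0.0964. Of the context list counts, 29 of 160 moved by over 1.5 times. The number of reads behind each value is unknown, so no counting error is given.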
